A study of Homo sapiens with 15 samples.

Results

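Gene expression was compared between OCI-AML5 cells exposed for 4 h to 1000 nM OTX015 and untreated cells of the same line, in 3 libraries each, which are 6 of the 15 libraries of the series. The libraries were chosen by their treatment labels, and every gene of the table was taken in. OCI-AML5 is an established acute myeloid leukaemia line, grown here with the cytokine GM-CSF in both groups, and no further allele or agent is named for either of them. The series is about BET protein degradation and RUNX1 knockdown in leukaemia cells with mutant RUNX1, so both groups come from 1 line with that background. The control label says that the cells had no treatment, and a solvent control is not mentioned. Another 3 libraries received 1000 nM ARV-825, a related compound, for 4 h, and the 6 remaining libraries carried an shRNA.

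OTX015 is a small molecule that occupies the acetyl-lysine pockets of the BET proteins, BRD2 and BRD3 among them. BET proteins bind acetylated histones at enhancers and promoters and help P-TEFb, the kinase CDK9 with a cyclin T, to release paused RNA polymerase II into elongation. A large part of cellular P-TEFb is held inactive in the 7SK ribonucleoprotein by HEXIM1 and its partners. In myeloid leukaemia BET inhibitors are known for lowering MYC and genes near strong enhancers, and for raising HEXIM1 and histone genes.

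The table states no unit, and its values were taken to be FPKM (fragments per kilobase of transcript, scaled by library). They summed to 619853 to 631061 per control library and 601131 to 656995 per OTX015 library, and the number of genes at or above 1 FPKM was 10738 to 10780 in control and 10638 to 10703 with OTX015. Of 12 markers of leukaemic myeloid cells, 11 reached a mean of 1 FPKM, and CD33 stood at 61.8, 64.5 and 63.9 FPKM in the control libraries. The same markers summed to 1040 to 1120 FPKM in control and 703 to 711 FPKM with OTX015. Epithelial and fibroblast markers summed to less than 1 FPKM in every library (0.215 to 0.803 and 0.0741 to 0.531 FPKM), B cell markers to 4.21 to 4.96 and 2.2 to 2.83 FPKM, and T and NK cell markers to 47.3 to 49.1 and 48.0 to 48.2 FPKM. The last sum came mainly from NKG7 and NCAM1 (means of 34.01 and 11.85 FPKM in control), and CD3D, CD3E, CD3G and CD2 were below 1 FPKM in every library. In bulk RNA, fewer cells of a type and less RNA per cell cannot be told apart, and a change in total RNA per cell is not visible in these values.

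Changes were tested on log2(FPKM + 1) with limma, and a gene was called at a Benjamini-Hochberg adjusted p below 0.05. Every log2 change below is a difference of mean log2(FPKM + 1), which understates the change of genes near 1 FPKM. OTX015 changed 7528 of 10819 tested genes (69.6%), of which 3901 were higher (36.1% of those tested) and 3627 lower (33.5%). Without the filter on low values, over 17105 genes, the balance turned to 3972 higher and 4253 lower. Most changes were small, since 54.5% of the called genes changed by less than 0.5 on the log2 scale. At least 2-fold changes were seen in 325 genes that rose (3.00%) and 537 that fell (4.96%), and 8-fold changes in 18 and 9 genes. All 3 libraries of one group lay outside the range of the other in 8152 genes (75.3%). With so many genes called, a group of genes is read below against these shares and against the median log2 change of 0.03 over all tested genes. Replicates are called biologic by the series, with no culture or day named, so a p-value weighs a difference against the spread of these libraries, which may be technical in part.

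Gene span showed little pattern, with median log2 changes of -0.01, 0.02, 0.03, 0.08 and 0.05 in 5 equal parts from the shortest to the longest genes. The control level did show one. In the lowest of 5 equal parts by control mean, 901 of 2164 genes rose and 448 fell (median 0.18). In the highest part 567 of 2164 rose and 910 fell (median -0.06). The shares over all genes therefore do not hold at every level.

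**Figure D1:**
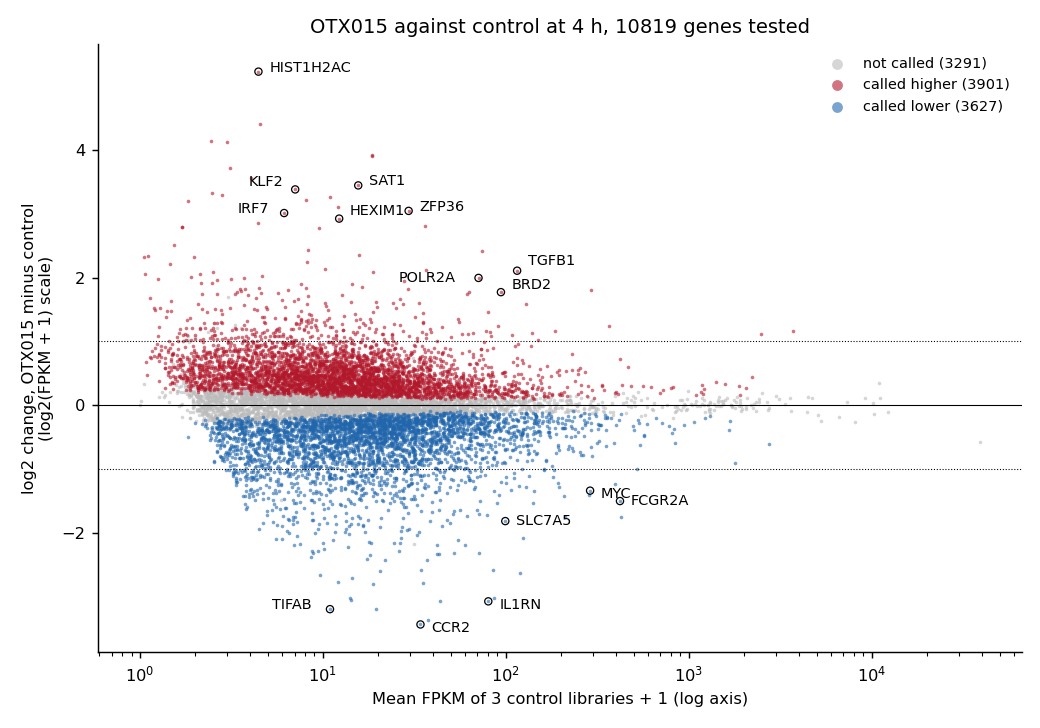
Each point is 1 of 10819 tested genes, with the mean FPKM + 1 of the 3 control libraries on a log axis and the log2 change with OTX015 on the vertical axis; red genes were called higher, blue lower and grey neither, and dotted lines mark 2-fold. HIST1H2AC stands apart at the top (5.23), and the falls of CCR2, TIFAB and IL1RN reach below -3.

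The genes that rose most were histone genes, and their promoters are shown first because they carry sequence features that most other promoters lack. Replication-dependent histones are encoded in gene clusters, are made in bulk when DNA replicates, and have mRNAs that end in a stem-loop in place of a poly(A) tail, although several of these genes are also known to give polyadenylated transcripts. RefSeq promoters (build GRCh38.p14, 250 bases before to 50 after the start) were matched for 8954 of 10819 tested genes (82.8%). The letters TATAAA, the core of a TATA box, were found on either strand in 26 of 41 promoters of cluster histones that rose at least 2-fold (63.4%), against 9.95% of other genes that rose at least 2-fold, 6.85% of genes that fell at least 2-fold, 5.47% of all tested genes and 3264 of all 27305 promoters of the table. CCAAT was found in 82.9%, 46.6%, 29.3% and 37.7% of the first 4 sets in that order, and in 35.7% of the table. The octamer ATTTGCAT, a site for POU-domain factors and a known element of H2B promoters, was found in 41.5%, 2.26%, 1.96% and 1.47% of these sets and in 1.8% of the table. Among all tested histone genes with a promoter it was present in 13 of 17 H2B and 10 of 15 H2A genes, which often share a promoter region head to head with an H2B gene, and in 0 of 11 H4 genes. The E-box CACGTG and the ETS core CCGGAAGT were in none of the 41, against 10.7% and 9.94% of tested genes. Over all tested cluster histone genes with a promoter, called or not, TATAAA was in 2 of 4 H1, 11 of 15 H2A, 11 of 17 H2B, 7 of 10 H3 and 6 of 11 H4 genes. CCAAT was in every H1, H2A, H2B and H3 gene and in 2 of 11 H4 genes. The octamer was in 0 of 4 H1 and 1 of 10 H3 genes. TATAAA was thus frequent in every family of cluster histones, CCAAT in all families but H4, and the octamer in H2A and H2B genes alone. These motifs were not compared between histone genes that rose and those that did not. A match describes letters in a window and not a bound site.

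The 120 bases before the start of 3 histone genes that rose in every OTX015 library, and of HEXIM1, are given 5′ to 3′ on the strand of the gene, with the TATA box, the CCAAT box (ATTGG on the other strand), the octamer, the GC box GGGCGG and the cyclic AMP response element TGACGTCA in capitals, none of which overlap here. They lie at chr6:26124052-26124171 (plus strand) for HIST1H2AC, chr6:27132796-27132915 (minus) for HIST1H2BJ, chr6:27146859-27146978 (minus) for HIST1H2BK and chr17:45148355-45148474 (plus) for HEXIM1.
HIST1H2AC: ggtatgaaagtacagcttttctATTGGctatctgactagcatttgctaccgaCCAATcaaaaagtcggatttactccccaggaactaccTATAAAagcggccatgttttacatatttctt
HIST1H2BJ: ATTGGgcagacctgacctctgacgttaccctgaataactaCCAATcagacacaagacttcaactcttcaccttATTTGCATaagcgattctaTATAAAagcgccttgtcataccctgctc
HIST1H2BK: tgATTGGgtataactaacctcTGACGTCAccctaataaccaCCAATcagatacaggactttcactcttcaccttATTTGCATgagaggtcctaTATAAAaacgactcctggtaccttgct
HEXIM1: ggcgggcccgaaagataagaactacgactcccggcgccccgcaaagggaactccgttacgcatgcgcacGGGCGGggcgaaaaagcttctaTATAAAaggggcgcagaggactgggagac
The 3 histone promoters share a CCAAT box on each strand and a TATA box just before the start, and both H2B promoters add the octamer between them. HEXIM1, not a histone gene, has a TATA box at a like distance and a GC box in place of CCAAT.

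HIST1H2AC, which encodes an H2A histone, stood at 3.43, 3.62 and 3.28 FPKM in the control libraries and at 169, 166 and 162 FPKM with OTX015, a log2 change of 5.23 ± 0.04 (SE, limma adjusted p = 7.37e-14). It had the largest rise of all tested genes, and its OTX015 libraries lay close together. HIST1H2BJ, an H2B gene, went from 2.09, 1.99 and 2.28 FPKM to 38.6, 36.3 and 45.6 FPKM (3.71 ± 0.12, adjusted p = 1.96e-09). HIST1H2BK, another H2B gene, which the naming rule did not pick and which was chosen after its values were seen, went from 30.3, 37.6 and 37.8 FPKM to 251, 244 and 261 FPKM (2.81 ± 0.08). Groups were far apart for each of these genes.

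In all, 25 of 33 tested H2A and H2B cluster genes rose and none was called lower, with a median log2 change of 1.92. The filter took the mean over all 9 libraries, so a histone gene low in control could be tested through its treated libraries alone. HIST1H3D, at 0.005, 0.005 and 0.296 FPKM in control and 3.80, 4.71 and 5.21 FPKM with OTX015, is such a gene. The counts and medians of cluster histones therefore favour rises in part through the filter. Of 29 tested H1, H3 and H4 cluster genes 20 rose and none was called lower (median 1.34), among them the H3 gene HIST1H3H, from 0.758, 0.829 and 0.887 FPKM to 17.1, 14.5 and 15.7 FPKM (3.20), and the linker histone gene HIST1H1C (3.10). HIST2H2AA3 and HIST2H2AA4 (3.92 and 3.90) are near-identical copies, as are HIST2H4A and HIST2H4B (4.40 and 4.13), so their separate values are uncertain. HIST2H3A and HIST2H3C have the same control values (0.713, 0.752 and 0.633 FPKM). Each of these pairs was counted as 2 genes in the numbers above. Replacement histones, most of which are made outside replication from ordinary polyadenylated mRNAs, also rose in 9 of 11 genes (median 0.83). The largest of these rises were in H1F0, a linker histone of resting cells (13.5 to 52.7 FPKM, 1.89), H2AFX, the histone that is phosphorylated at DNA breaks (62.3 to 216 FPKM, 1.78), and H1FX (1.59). H3F3B, which encodes histone H3.3, rose from 358, 392.5 and 351 FPKM to 920.4, 897.5 and 799.5 FPKM (1.25).

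The size of the cluster histone response differed among the 3 OTX015 libraries. Replicate 3 was the highest of the 3 in 59 of 62 tested cluster histone genes and lay at least 2-fold above the mean of the other replicates in 36 of 62, against 12 of 10548 other genes (0.114%). The ratio of replicate 3 to that mean had a median of 2.48 over the histone genes (range 0.956 to 8.48) and of 0.971 over the other genes. HIST1H4H, an H4 gene, shows the uneven kind, with 7.73, 5.44 and 6.55 FPKM in control and 21.7, 11.8 and 74.1 FPKM with OTX015 (1.89 ± 0.65, adjusted p = 0.0234). The H2B gene HIST1H2BL had 6.47, 3.20 and 27.7 FPKM with OTX015, after 2.54, 1.402 and 2.14 FPKM in control, and was not called (1.69 ± 0.75, adjusted p = 0.0652). These 2 genes, chosen after their values were seen, have OTX015 libraries that differ from each other by more than the groups do. In the ARV-825 libraries HIST1H4H stood at 12.6, 71.9 and 19.7 FPKM, so a single library of that group was high too.

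Without OTX015 replicate 3, 37 of 60 tested cluster histone genes were called higher, none lower, with a median log2 change of 1.31, compared with 45 of 62 and 1.68 with all libraries. Without replicate 2 the count was 58 of 62 (median 2.07), and without replicate 1 it was 43 of 62 (1.85). The number called and the median thus depended on which OTX015 library was left out. Whether RNA was selected by poly(A) tail is not stated, and the cause of the unevenness was not tested. The octamer was in 8 of 20 promoters of genes with a ratio below 1.5 and in 14 of 31 of those with a ratio of 2 or more, and TATAAA in 13 and 21.

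**Figure D2:**
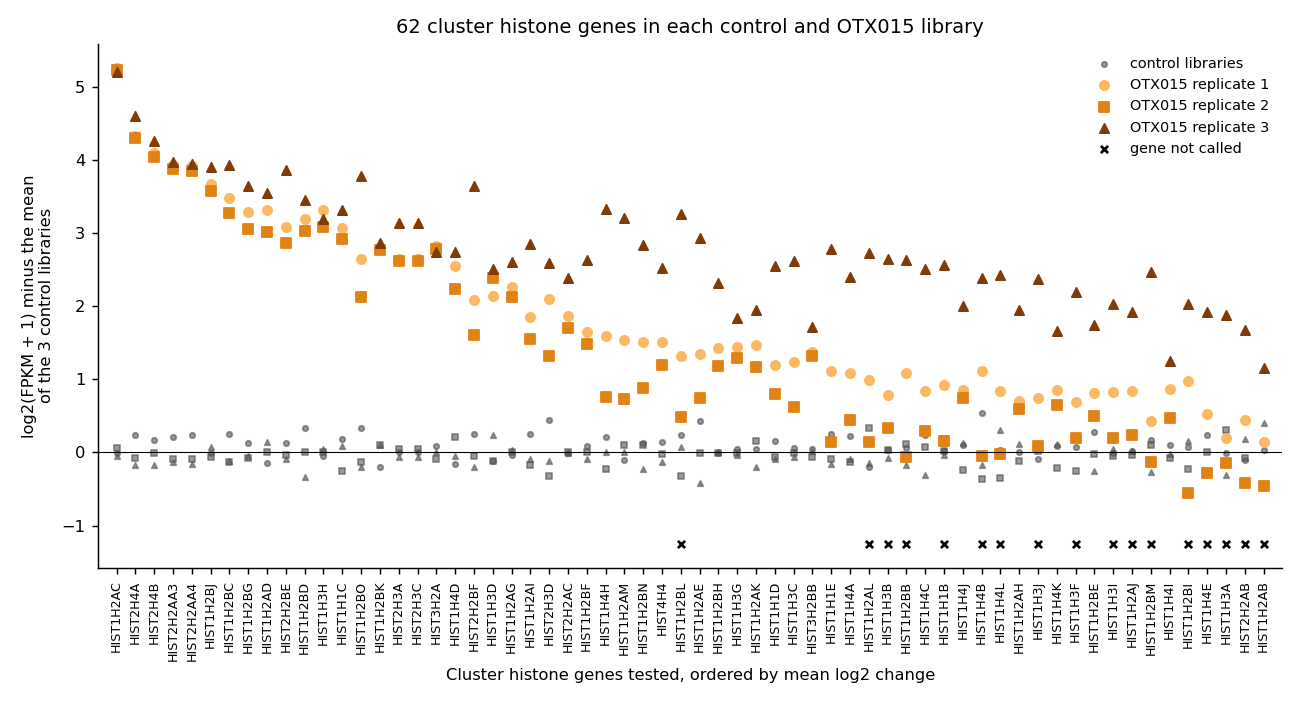
For each of 62 tested cluster histone genes, ordered by mean log2 change, symbols give log2(FPKM + 1) of each control (grey) and OTX015 library (orange to brown) minus the control mean, and crosses mark genes that were not called. OTX015 replicate 3 (triangles) is the highest of the 3 in 59 genes, and the libraries nearly coincide for HIST1H2AC, HIST1H2BK and HIST3H2A, the last of these an H2A gene picked out after its values were seen.

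Genes of the drug targets and of elongation control changed next to the histones. HEXIM1, the inhibitor of P-TEFb, stood at 10.3, 12.1 and 11.4 FPKM in control and 92.8, 90.0 and 93.3 FPKM with OTX015 (2.92 ± 0.06, adjusted p = 1.13e-10). SERPINI1, a protease inhibitor gene used as a marker of BET inhibition, went from 0.417, 0.552 and 0.440 FPKM to 5.82, 6.25 and 5.39 FPKM (2.21 ± 0.09). Both genes had tight groups with no overlap. BRD2 rose from 85.2, 94.9 and 99.0 FPKM to 316, 313 and 329 FPKM (1.77 ± 0.07, adjusted p = 9.38e-09). BRD3 was not called, with 18.0, 17.6 and 16.6 FPKM against 18.6, 17.9 and 19.7 FPKM (0.10, 95% interval of limma from -0.07 to 0.27, adjusted p = 0.253).

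Of 8 P-TEFb and 7SK genes 6 rose and 1 fell (median 0.58). The kinase CDK9 rose by 0.61, its cyclins CCNT1 and CCNT2 by 0.56 and 0.41, and MEPCE, the capping enzyme of 7SK RNA, by 0.80, while LARP7, the protein that stabilizes 7SK RNA, fell by 0.37 (adjusted p = 0.000288). Among 20 genes of the super elongation complex and of pausing 12 rose and 7 fell. ELL2, an elongation factor of that complex, rose from 2.17, 2.82 and 2.71 FPKM to 10.8, 12.7 and 10.5 FPKM (1.79), and its scaffold proteins AFF4 and AFF1 by 1.18 and 0.98. The partner EAF2 fell by 0.78, MLLT1, a reader of acetylated histones in the same complex, by 0.59, and NELFCD, a subunit of the pausing factor NELF, by 0.54 on the log2 scale. Members of the super elongation complex thus moved in both directions, where 36.1% of all tested genes were higher and 33.5% lower. Mediator, which bridges enhancers to the polymerase, had 16 of 32 subunits higher and 5 lower (median 0.17), with CDK19 and MED13 of its kinase module at 0.81 and 0.70 and MED12 of the same module at -0.42.

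POLR2A, the catalytic subunit of RNA polymerase II, rose from 64.1, 76.3 and 69.3 FPKM to 268, 281 and 295 FPKM (2.00 ± 0.08, adjusted p = 7.12e-09). The 12 tested subunits of that enzyme had a median log2 change of 0.04, with 3 higher, POLR2A among them, and 2 lower. RNA polymerases I and III, which make ribosomal and transfer RNA, had 0 of 23 tested subunits higher and 16 lower (median -0.52). Their largest falls were in POLR1B (26.1, 23.0 and 23.4 FPKM in control, 9.98, 8.38 and 12.4 FPKM with OTX015, -1.17), CD3EAP (-1.14) and POLR3D (-1.06).

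**Figure D3:**
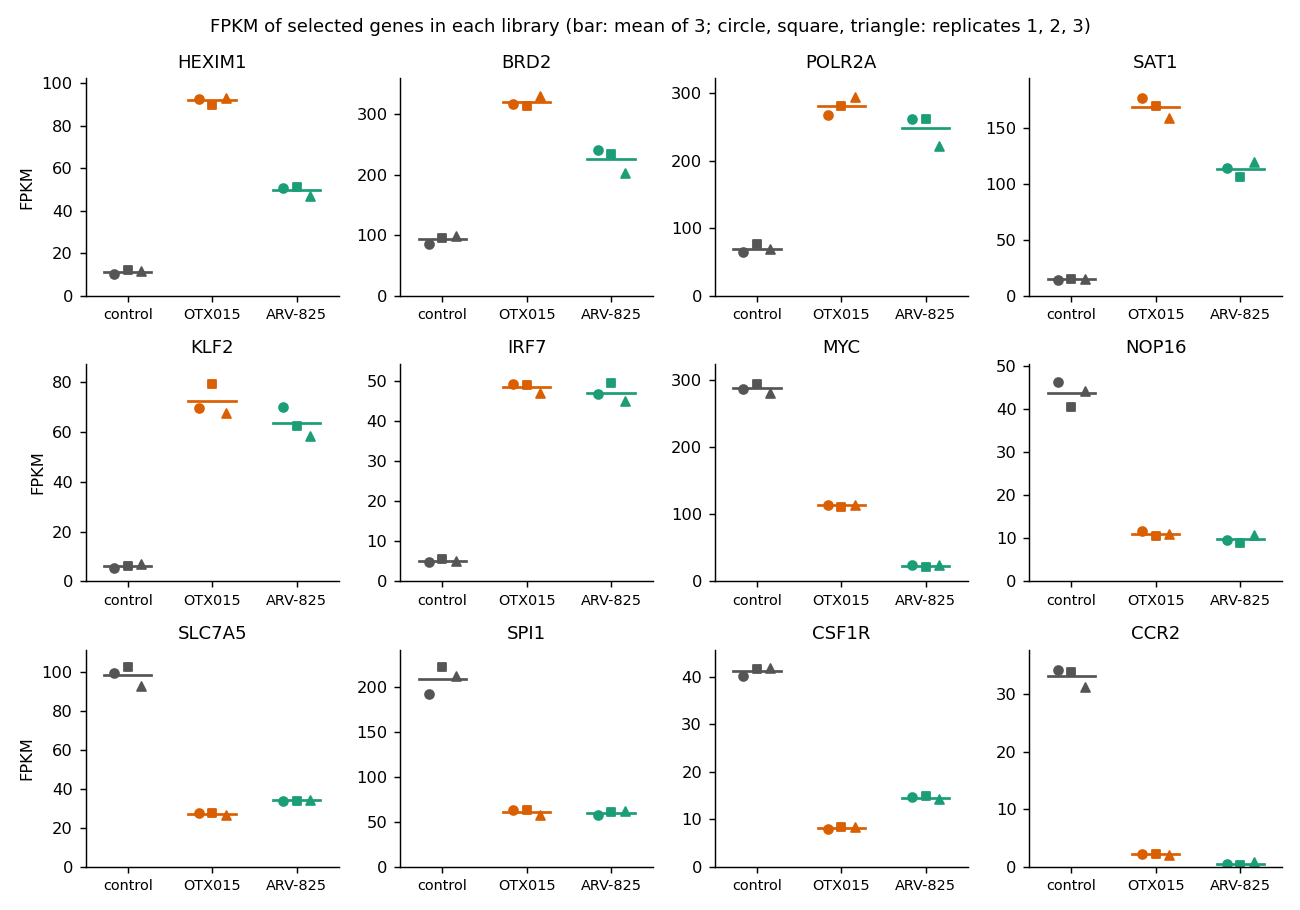
FPKM of 12 genes in the 3 control, 3 OTX015 and 3 ARV-825 libraries, with linear axes from 0, a bar at the mean and circle, square and triangle for replicates 1, 2 and 3. The OTX015 libraries lie above all control libraries for HEXIM1, BRD2, POLR2A, SAT1, KLF2 and IRF7 and below them for MYC, NOP16, SLC7A5, SPI1, CSF1R and CCR2.

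MYC, a transcription factor that drives ribosome production and metabolism, fell from 287, 295 and 281 FPKM to 114.5, 111 and 114 FPKM (-1.34 ± 0.05, adjusted p = 4.29e-09). Of 10 tested genes of its network, MYC included, 4 rose and 4 fell, close to the shares over all genes. MXD4 and MXD1, which compete with MYC for their common partner MAX, rose by 1.36 and 1.31. The related repressor genes MNT and MGA fell by 0.63 and 0.55. Over 400 tested genes of growth, from polymerases I, II and III to amino acid transport, 54 were higher and 244 lower (median -0.24). The falls were most regular among nucleolar factors that assemble ribosomes, where 49 of 50 were lower and none higher (median -0.80). NOP16 fell from 46.2, 40.5 and 44.2 FPKM to 11.8, 10.5 and 10.96 FPKM (-1.89), RRS1 by 1.84, UTP18 by 1.68 and MRTO4 by 1.42 on the log2 scale, all of which act in assembly of the large or small ribosomal subunit.

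CACGTG, the E-box that MYC with MAX is known to bind, was in 18 of 43 promoters of these nucleolar genes (41.9%), against 10.7% of tested genes and 7.43% of all promoters in the table. The ETS core CCGGAAGT was also more frequent, in 11 of the 43 (25.6%) against 9.94% of tested genes. Whether either site has a part in the falls was not tested. The 120 bases before the start of NOP16 and MRTO4, which fell as well, hold no CACGTG. UTP18 is shown as an example because its E-box lies within the 120 bases before the start, at chr17:51260426-51260545 (plus strand, RefSeq, GRCh38.p14), with the E-box in capitals.
UTP18: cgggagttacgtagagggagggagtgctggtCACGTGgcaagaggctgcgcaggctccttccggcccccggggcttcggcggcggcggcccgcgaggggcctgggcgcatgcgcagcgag
CACGTG was in 15.9% of all genes that fell at least 2-fold, in 8.96% of mitochondrial and in 5.08% of cytosolic ribosomal protein genes.

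The proteins of the ribosome itself behaved unlike the factors that assemble it. Of 74 cytosolic ribosomal protein genes 5 were called higher and 1 lower, their median log2 change was 0.01 and the extremes were -0.17 and 0.31, although with the control and OTX015 libraries fitted alone 11 were called higher and 2 lower. Leaving out control replicate 2, control replicate 3, OTX015 replicate 1 or OTX015 replicate 2 gave 3 called higher in each case. Mitochondrial ribosomal proteins fell in 55 of 75 genes and rose in 3 (median -0.27), led by MRPL3, from 98.7, 89.8 and 91.0 FPKM to 40.4, 39.6 and 40.2 FPKM (-1.20). Cytosolic aminoacyl-tRNA synthetases, which charge transfer RNA, fell in 16 of 20 genes and rose in 1 (median -0.44), with FARSA at -1.10 and AARS at -0.89. Their mitochondrial counterparts fell in 12 of 17 genes and rose in 1 (median -0.28). Translation factors were divided, with 10 of 44 higher and 19 lower. EIF5, which triggers start codon selection, rose from 106, 105 and 111 FPKM to 224, 248 and 224 FPKM (1.10), and EIF4EBP1, an inhibitor of cap binding, fell by 1.00 and EIF5A by 0.63 on the log2 scale. Respiratory chain subunits encoded in the nucleus had 17 of 76 genes higher and 21 lower (median -0.01), with 11 higher without OTX015 replicate 1, and 0 of 13 mitochondrially encoded genes was called by limma (0 at an unadjusted p below 0.05). ARV-825 replicate 1, which shares the spread of the fit, lists 6 of these 13 genes at 0, and with the control and OTX015 libraries fitted alone 1 was higher and 3 were lower.

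Metabolic supply genes fell with the ribosome factors. Amino acid transporters fell in 14 of 16 genes and rose in 1 (median -0.76). SLC7A5, which carries leucine and other large neutral amino acids, went from 99.5, 102.5 and 93.0 FPKM to 27.4, 27.8 and 26.4 FPKM (-1.81 ± 0.04, adjusted p = 3.66e-10), and the arginine and lysine carrier SLC7A1 fell by 1.51 on the log2 scale. Purine and pyrimidine synthesis enzymes fell in 20 of 29 genes and rose in 5 (median -0.39). The pyrimidine enzyme DHODH fell from 6.92, 5.72 and 6.87 FPKM to 1.80, 2.29 and 1.70 FPKM (-1.36), the purine enzyme PFAS by 1.14 and the pyrimidine enzyme CAD by 1.01. Against that trend RRM2, the small subunit of ribonucleotide reductase, rose from 130, 138 and 143 FPKM to 252, 278 and 254 FPKM (0.93). One-carbon and serine genes fell in 11 of 16 and rose in 3, with the folate carrier SLC19A1 at -1.54 and the serine synthesis enzyme PSAT1 at -1.09.

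Among the tested polyamine genes SAT1 alone changed by at least 2-fold. SAT1, the acetyltransferase that starts polyamine breakdown and export, rose from 14.1, 14.7 and 15.1 FPKM to 177, 169.9 and 159.6 FPKM (3.44 ± 0.06, adjusted p = 3.81e-11). The polyamine oxidase SMOX and OAZ2, an antizyme that lowers ornithine decarboxylase, rose by 0.69 and 0.74, and the spermidine synthase SRM fell by 0.54 on the log2 scale. Of 12 tested polyamine genes 6 rose and 5 fell, the former including enzymes of breakdown and the latter including enzymes of synthesis. Without control replicate 2 the number that fell was 3.

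**Figure D4:**
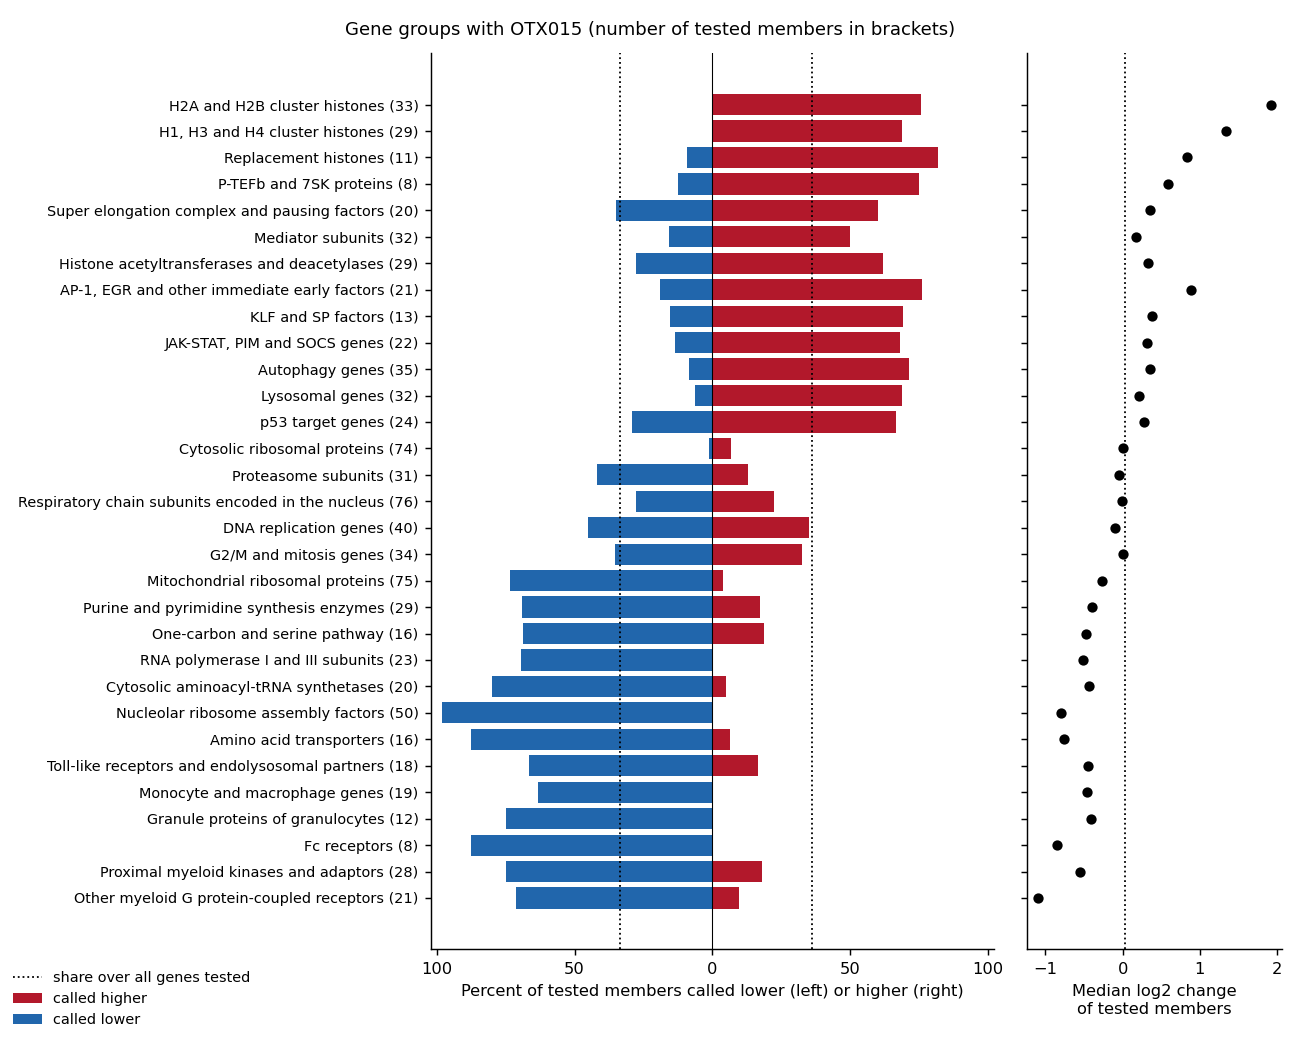
Left, the percent of tested members of 31 gene groups called lower (blue, leftward) or higher (red, rightward) with OTX015, with dotted lines at the shares over all tested genes (33.5% and 36.1%); right, the median log2 change of each group, with a dotted line at the median of all tested genes (0.03). Cluster histones reach medians of 1.92 and 1.34, and nucleolar assembly factors and other myeloid G protein-coupled receptors lie at -0.80 and -1.09.

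Genes of myeloid identity and function were mostly lower. SPI1, which encodes PU.1, a factor needed for macrophage and granulocyte fate, fell from 192, 221 and 212 FPKM to 63.4, 63.4 and 57.3 FPKM (-1.75 ± 0.06). RUNX1 was not called, with 61.7, 63.3 and 59.1 FPKM in control and 52.1, 52.4 and 61.3 FPKM with OTX015 (-0.15, adjusted p = 0.0668). Its replicate 3 with OTX015 lay within the control range, and without that library RUNX1 passed the threshold. CBFA2T3, a corepressor gene of the ETO family, fell by 1.60, its relative CBFA2T2 rose by 1.11, and the family members RUNX2 and RUNX3 fell by 0.94 and 0.54. The C/EBP factor of granulocyte maturation CEBPE fell from 14.8, 16.5 and 16.9 FPKM to 3.69, 3.19 and 3.06 FPKM (-1.98). ERG and TAL1, factors of stem and progenitor cells, fell by 2.04 and 1.83, and GATA2 by 1.41. Other transcription factors of the same kinds rose, so that ETS factors had 6 of 16 genes higher and 7 lower.

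Surface and signalling genes of phagocytes showed the larger falls. CCR2, the receptor for the chemokine CCL2, had the largest fall among all tested genes whose groups did not overlap, from 34.3, 33.9 and 31.3 FPKM to 2.24, 2.16 and 2.08 FPKM (-3.43 ± 0.11, adjusted p = 2.76e-09). Its ligand CCL2 fell from 90.6, 76.9 and 84.2 FPKM to 13.3, 12.6 and 13.6 FPKM (-2.58). CSF1R, the receptor of M-CSF, went from 40.0, 41.6 and 41.8 FPKM to 8.02, 8.40 and 8.37 FPKM (-2.19). A receptor and its ligand were thus both lower in every OTX015 library.

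Monocyte and macrophage genes fell in 12 of 19 and none rose (median -0.46), with 7 of 12 lower when a mean of 5 FPKM was required. Fc receptors, which bind antibodies, fell in 7 of 8 (median -0.85), with FCGR1A, the high-affinity IgG receptor, at -2.11 and FCGR2A going from 411, 420.3 and 427 FPKM to 138, 149 and 157 FPKM (-1.50). G protein-coupled receptors of myeloid cells other than chemokine receptors fell in 15 of 21 and rose in 2 (median -1.09), among them PTAFR, the platelet-activating factor receptor (-2.58), and P2RY2, a nucleotide receptor (-2.15). Chemokines fell in 6 of 8 and none rose, with CXCL1 at -1.89 and CXCL8 at -1.18. Toll-like receptors and their endolysosomal partners fell in 12 of 18 and rose in 3. CXorf21, a partner of the endolysosomal receptors, fell from 90.8, 82.0 and 83.4 FPKM to 10.2, 9.02 and 9.67 FPKM (-3.02), and TIFAB, an inhibitor of signalling by TRAF6, from 9.92, 10.1 and 9.76 FPKM to 0.246, 0.182 and 0.162 FPKM (-3.19). TRAF6 itself rose by 0.67.

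IL1RN, the interleukin-1 receptor antagonist, fell from 79.3, 74.5 and 83.9 FPKM to 9.43, 9.16 and 7.17 FPKM (-3.07), and IL18RAP, an interleukin-18 receptor subunit, by 3.02 on the log2 scale. Kinases and adaptors close to these receptors fell in 21 of 28 and rose in 5 (median -0.55). LAT2, an adaptor of Fc receptor signalling, went from 120.5, 119 and 118 FPKM to 19.2, 19.3 and 17.0 FPKM (-2.63), and the inhibitory adaptors DOK2 and DOK3 fell by 1.90 and 1.52. CBL and CBLB, ubiquitin ligases that turn off receptor signalling, rose by 0.65 and 0.89. Integrins and selectin ligand genes went both ways, with 5 of 11 lower and 3 higher, against 33.5% and 36.1% of all tested genes. SELPLG, the ligand of P-selectin, fell by 2.19 and the integrin ITGA4 by 1.54, and ICAM1, an integrin ligand, rose by 0.57. CIITA, the master regulator of MHC class II genes, fell from 7.53, 8.07 and 7.87 FPKM to 0.738, 0.898 and 0.708 FPKM (-2.31), with 6 of 12 class II genes lower and none higher. Granule proteins fell in 9 of 12, led by RNASE2 at -0.96 and SRGN, the proteoglycan core of granules, at -0.91. Over all 150 tested genes of the myeloid lists 15 were higher and 93 lower. Of the 11 tested markers of leukaemic myeloid cells, 9 were lower and none higher (median -0.46), and the part of cell composition in these falls was not tested.

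Genes of the immediate early class went the other way, with 16 of 21 higher and 4 lower (median 0.89). These genes respond to signals within minutes and encode unstable mRNAs. ZFP36, an RNA-binding protein that destabilizes cytokine mRNAs, rose from 26.2, 30.6 and 28.6 FPKM to 233, 241.5 and 251 FPKM (3.04 ± 0.06, adjusted p = 1.9e-10). The AP-1 subunit JUND rose by 1.74, IER3 by 1.73 and the antiproliferative gene BTG2 by 1.60. FOSL1 and FOSL2, which are AP-1 subunits as well, fell by 1.74 and 0.84. AP-1 genes thus moved in both directions, where 36.1% of all tested genes were higher and 33.5% lower.

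KLF2, a factor of quiescence in leukocytes, rose from 5.19, 6.004 and 6.98 FPKM to 69.8, 79.5 and 67.7 FPKM (3.38 ± 0.10), and KLF6 and KLF10 by 1.41 and 1.05, within 9 of 13 KLF and SP genes that were higher and 2 lower. TGFB1, the ligand TGF-beta 1, rose from 103, 122 and 118 FPKM to 498, 503 and 483 FPKM (2.11), and the corepressor SKI of its pathway by 1.09. The interferon regulator IRF7 rose from 4.86, 5.59 and 4.97 FPKM to 49.3, 49.0 and 47.1 FPKM (3.01 ± 0.06, adjusted p = 1.13e-10). In the list that joins interferon regulatory factors with interferon-stimulated genes 6 of 29 were higher and 13 lower, with the regulators IRF1 and IRF5 at 0.88 and -1.91 and the interferon-stimulated XAF1 at -1.94. In the NF-kB list 9 of 23 genes rose and 8 fell. NFKBIZ, BCL3 and the inhibitor gene NFKBIA rose by 1.51, 1.12 and 0.90, and TRAF3, a brake on the non-canonical pathway, fell by 1.35. JAK-STAT genes were higher in 15 of 22 and lower in 3, with the feedback inhibitor SOCS3 at 1.55 and STAT5A, which acts below the GM-CSF receptor, at -1.02.

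Survival genes changed in opposite directions. BCL2 fell from 17.2, 16.5 and 16.1 FPKM to 3.76, 3.87 and 4.54 FPKM (-1.80 ± 0.08), and MCL1, which shares its function, rose from 67.2, 64.4 and 64.4 FPKM to 147.5, 140.1 and 144 FPKM (1.13 ± 0.05). BCL2L1, encoding BCL-xL, fell by 0.66, and the pro-apoptotic BCL2L11, encoding BIM, rose by 0.67. TNFSF10, the death ligand TRAIL, fell from 49.2, 44.1 and 46.7 FPKM to 12.2, 13.2 and 12.8 FPKM (-1.79), while its receptor TNFRSF10B rose by 0.65 and TNFRSF10A fell by 0.58. Among cell cycle regulators CCND1 fell by 1.68, CDK4 by 0.70 and CDK6 by 0.90, and CCND3 and the inhibitor CDKN1A rose by 0.84 and 1.02. DNA replication genes were higher in 14 of 40 and lower in 18, and mitosis genes higher in 11 of 34 and lower in 12, so neither list was far from the shares over all genes. The p53 target list had 16 of 24 higher and 7 lower, with TP53INP1 at 1.84 and the nuclease gene AEN at -1.10.

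Autophagy and lysosome genes were mostly higher. Autophagy genes rose in 25 of 35 and fell in 3 (median 0.35), or in 1 without OTX015 replicate 1 or without OTX015 replicate 3, with the cargo receptor SQSTM1 going from 78.1, 83.1 and 75.6 FPKM to 229, 225 and 205 FPKM (1.46) and MAP1LC3B, which coats the autophagosome, also at 1.46. Lysosomal genes rose in 22 of 32 and fell in 2 (median 0.21), led by the sialidase NEU1, from 14.2, 16.5 and 15.2 FPKM to 59.9, 57.5 and 55.4 FPKM (1.85). In the ATF4 list, the response to amino acid shortage and misfolded protein, 9 of 24 rose and 13 fell. PPP1R15A, which restores translation, rose by 1.60, and CHAC1 and STC2 fell by 2.19 and 2.11. DDIT4, an mTORC1 inhibitor, had 17.9, 21.1 and 16.9 FPKM in control and 45.6, 105 and 42.5 FPKM with OTX015 (1.62 ± 0.33), and 1.21 without OTX015 replicate 2, the high library. Heat shock and chaperone genes were higher in 10 of 34 and lower in 15.

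In ARV-825 the OTX015 moiety is linked to a cereblon ligand, which brings BET proteins to a ubiquitin ligase for degradation. This is 1 pair of related compounds at the same dose and time, and the difference itself was tested in the same limma fit, ARV-825 minus OTX015. Of 10819 genes 6282 differed (58.1%), with 2672 higher with ARV-825 (24.7%) and 3610 lower (33.4%). After median-ratio rescaling the split was 3215 higher and 3119 lower, so the excess of lower genes was not kept. MYC stood at 24.1, 21.4 and 23.6 FPKM with ARV-825, against 114.5, 111 and 114 FPKM with OTX015 (-2.25, 95% interval from -2.36 to -2.15, adjusted p = 1.47e-09). HEXIM1 was lower with ARV-825 by 0.88, ZFP36 by 0.90, SAT1 by 0.57 and BRD2 by 0.51 (adjusted p from 1.65e-06 to 0.000175), so these genes were higher with OTX015. RUNX1 was lower with ARV-825 than with OTX015 (-0.59, adjusted p = 4.56e-05). The metalloprotease gene CPM (4.44, 4.89 and 4.12 FPKM with OTX015, 31.3, 38.0 and 19.4 FPKM with ARV-825, 2.43) and KIAA1683 (2.52) were higher with ARV-825.

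Several of the genes that OTX015 changed most showed no called difference between the compounds. The interval of the difference was -0.17 to 0.08 for IRF7, -0.17 to 0.10 for SPI1, -0.22 to 0.12 for BCL2, -0.31 to 0.14 for IL1RN and -0.40 to 0.03 for KLF2, each narrow beside the change with OTX015. Nucleolar assembly factors were higher with ARV-825 in 14 of 50 genes and lower in 13 (median -0.01), beside the large difference in MYC. Phagocyte genes were divided. CSF1R was higher with ARV-825 (0.75), monocyte and macrophage genes were higher in 15 of 19 and lower in 1, and Fc receptors were higher in 6 of 8 and lower in none. Toll-like receptors and their partners were higher in 4 of 18 and lower in 11 (median -0.39), other myeloid G protein-coupled receptors higher in 3 of 21 and lower in 12 (median -0.37), and chemokine receptors lower in 3 of 4 and higher in none. TGF-beta, SMAD and Notch genes were lower with ARV-825 in 15 of 22 and higher in none (median -0.55). After the rescaling the medians of these 6 lists kept their sign, and that of nucleolar factors was 0.04.

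**Figure D5:**
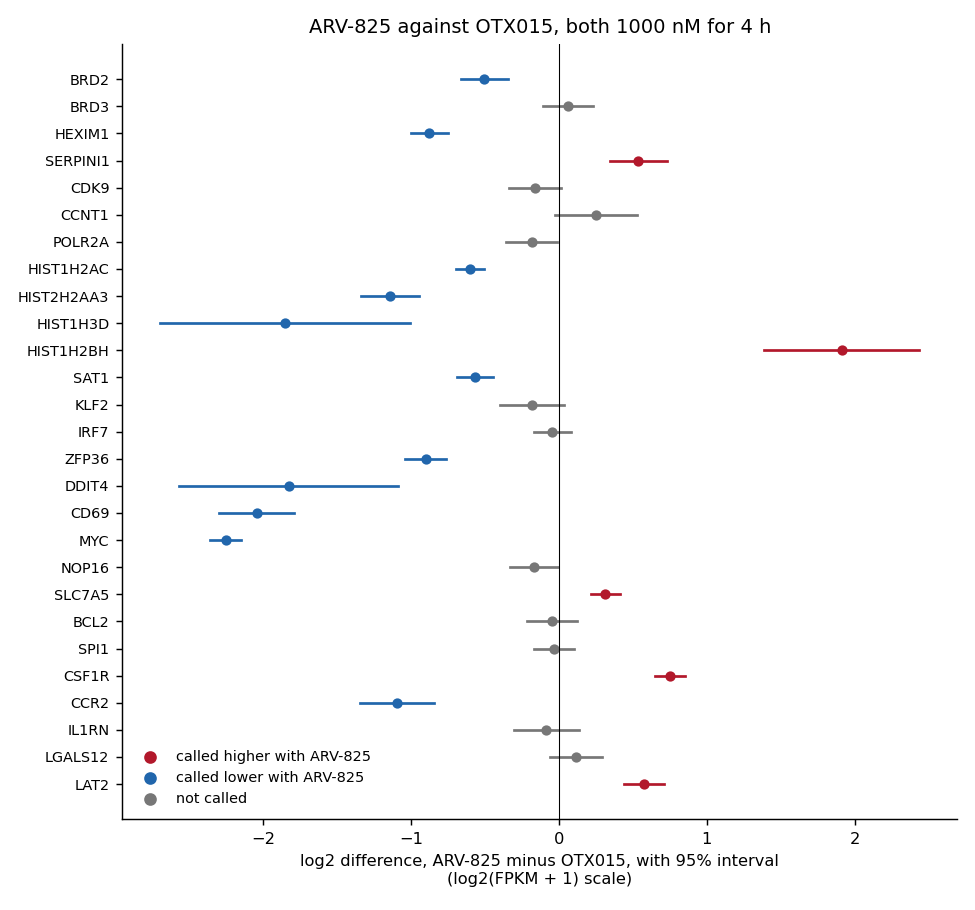
Log2 difference between ARV-825 and OTX015 (both 1000 nM, 4 h) for 27 genes, with the 95% interval of limma; blue is lower and red higher with ARV-825, grey not called. MYC lies at -2.25, CSF1R at 0.75, and the intervals of IRF7, SPI1, BCL2 and IL1RN span 0.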

How the data were processed

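RNA of 3 untreated, 3 OTX015 and 3 ARV-825 libraries was analysed. The authors deposited values taken to be quantile-normalized FPKM, listed for 19620 entries of protein-coding genes. That unit was inferred from Cufflinks 2.0 in the submitters' processing notes and from the values. The same notes name TopHat2 2.0 and hg19. The libraries do not share 1 distribution, with medians from 1.795 FPKM (ARV-825 replicate 1) to 2.205 FPKM (control replicate 2). How the normalization was done is therefore uncertain. The annotation, strand and read depth are not given in the sources used here, so no counting interval is given and antisense partners cannot be told apart. The 16 Y-linked pseudoautosomal copies were dropped, 28 symbols spoiled into dates were recovered by ID, and 19313 IDs matched the table of names.

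Values were analysed as log2(FPKM + 1) in genes whose mean over the 9 libraries was 1 FPKM or more. All 9 shared 1 fit with limma 3.58.1 in R 4.3.3 (lmFit, eBayes with trend, two-sided tests, Benjamini-Hochberg adjustment over all tested genes), which was first tested on simulated data. The shRNA table was normalized separately and was not used. No 2 libraries were copies of each other. Genes named are the 20 largest rises and 20 largest falls among called genes whose groups did not overlap, up to 4 called members of each list in each direction, 12 genes of BET biology whatever their call, and 5 called genes of largest difference between the compounds in each direction. The 75 gene lists (1897 of 1909 entries matched), the members and this rule were chosen with earlier results of these data known. Some genes under this rule are not reported here. Promoters came from RefSeq (GRCh38.p14), a different build from that of the files, and were joined by symbol. Alternatives changed the pseudocount, filter, libraries in the fit, scaling, trend, replicate block and each replicate in turn.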

Additional observations from a re-analysis of the deposited data

How the results depend on the processing

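No named gene changed direction under any alternative that was run. With a pseudocount of 0.1 the genes at least 2-fold higher with OTX015 rose from 325 to 549, and those at least 2-fold higher or lower with ARV-825 than with OTX015 numbered 184 and 432, compared with 91 and 114. With a mean of at least 5 FPKM, which leaves 8306 genes, 349 fell at least 2-fold with OTX015, compared with 537, and 30 and 65 were at least 2-fold higher or lower with ARV-825. Leaving out 1 replicate gave 6895 to 7176 called genes, compared with 7528, and 312 to 342 and 524 to 562 at least 2-fold changes up and down. Between 8 and 13 of up to 464 named genes lost their call in each of these fits. Same-numbered replicates did not pair (correlations of their deviations of -0.123, 0.061 and -0.131), and with a replicate block 7262 genes were called, 3739 higher and 3523 lower. Without a filter on low values 24 of 39 myeloid G protein-coupled receptors and 21 of 45 genes of the interferon list were called lower, compared with 15 of 21 and 13 of 29. Proteasome subunits had 8 called lower without control replicate 2, compared with 13, and glycolysis genes 7 lower without OTX015 replicate 3, compared with 11. In lists with 0 to 2 members called against the main direction, leaving out 1 replicate moved that small count by at most 1: P-TEFb and 7SK, RNA polymerases I and III, both kinds of aminoacyl-tRNA synthetase, amino acid transporters, monocyte genes, other myeloid G protein-coupled receptors, chemokines, granule proteins, MHC class II genes, the interleukin-1 list, progenitor surface genes and the leukaemic markers. The read depth is unknown, so the precision of genes near 1 FPKM cannot be given.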

Other observations

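Chromatin and RNA processing genes made up a further set of changes. Histone acetyltransferases and deacetylases were higher in 18 of 29 tested genes and lower in 8 (median 0.33), and the 2 enzyme kinds did not separate by direction. The deacetylase SIRT1 rose from 6.83, 6.60 and 5.92 FPKM to 16.1, 17.3 and 17.7 FPKM (1.28 ± 0.06), the acetyltransferase EP300, which places marks that BET proteins read, rose by 0.82, and the class IIa deacetylases HDAC9, HDAC7 and HDAC4 fell by 1.05, 1.03 and 0.96 on the log2 scale. Among 42 histone methyltransferases and demethylases 15 rose and 9 fell, and the 4 largest rises were all demethylases of the KDM3, KDM4 and KDM5 families: KDM3A (9.57 to 25.8 FPKM, 1.34), KDM4B (0.99), KDM4A (0.84) and KDM5A (0.82). SR splicing factors and their kinases were higher in 12 of 20 and lower in 4 (median 0.27). The splicing kinase CLK1 rose from 17.6, 13.9 and 15.4 FPKM to 34.4, 34.7 and 34.0 FPKM (1.09), and SRSF7 fell from 140.1, 122 and 128 FPKM to 68.4, 73.4 and 70.5 FPKM (-0.86).

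Cholesterol genes were higher in 13 of 31 and lower in 8, close to the shares over all genes, yet TM7SF2, a sterol reductase, rose from 9.56, 9.13 and 9.30 FPKM to between 42.9 and 45.2 FPKM (2.13 ± 0.06). Of 35 DNA repair genes 6 rose and 14 fell. RAD51D, a recombination factor, fell from 8.55, 8.23 and 8.81 FPKM to 1.72, 1.58 and 1.57 FPKM (-1.86 ± 0.09, limma adjusted p = 2.16e-08), and XRCC4, which joins broken ends, fell by 1.09.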
